A study of Mus musculus with 9 samples.

Results

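The mitochondrially encoded transcripts were the 16 rows of the expression table whose symbol starts with mt- and whose position lies on the mitochondrial chromosome, out of 31167 rows in all. They comprised 13 messenger RNAs, 2 ribosomal RNAs (mt-Rnr1 and mt-Rnr2) and 1 transfer RNA (mt-Tp). RNA had been sequenced from mouse primary renal tubular epithelial cells of C57BL/6 kidney in 3 groups of 3 libraries. Sham cells were left untreated, as the study describes them. H/R cells were kept in glucose-free medium at 1.0% oxygen for 6 h and were then returned to complete medium and normal oxygen for 18 h, a culture model of ischemia and reperfusion. EGR1OV cells were transfected with an Egr1 expression plasmid driven by a CMV promoter, Egr1 being an immediate early transcription factor. In its account of the sequenced groups, the study describes the plasmid as given in place of H/R. Its general transfection protocol, which also covers primary tubular cells, places transfection before H/R. Whether the EGR1OV cells also went through H/R is therefore not certain. No group with an empty plasmid is among these samples, so effects of transfection and of Egr1 itself cannot be told apart. The labels do not say whether the replicates were separate cultures or animals, and p-values measure only the spread between these libraries.

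Mitochondrial DNA encodes core subunits of respiratory complexes I, III and IV and of the ATP synthase (complex V), together with the ribosomal and transfer RNAs needed to translate them inside the organelle. Both strands are transcribed as long precursors, and transfer RNAs that lie between the other genes are cut out to release them. All other subunits of these complexes, and every factor that transcribes, matures and degrades mitochondrial RNA, come from nuclear genes. Renal tubule cells depend heavily on oxidative phosphorylation, and pieces of mitochondrial DNA have been copied into nuclear chromosomes during evolution.

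Levels are given in FPKM, fragments scaled to exon length and to all fragments of the library, so they are relative to transcript length and to the rest of the library. The depth recovered from the steps of the FPKM values was 16183612 to 18384018 reads per library. Egr1, the overexpressed gene, had Sham levels of 6.20, 6.91 and 6.09 FPKM, H/R levels of 8.57, 7.59 and 7.48 and EGR1OV levels of 45.7, 42.2 and 40.1. Of the tubule markers, Krt8, Krt18, Epcam and Pax8 were present in every library. Umod was listed at 0 in all 9, and Slc34a1, Slc12a1 and Slc12a3 were at most 0.157 FPKM. A structural RNA row, Gm23935, ran from 1494 to 21700 FPKM between libraries, in no order that followed the groups. With its log2 level as a covariate, the counts of changed members were 13, 0 and 12 in place of 13, 0 and 13 (EGR1OV against Sham, H/R against Sham and EGR1OV against H/R).

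The sequences below come from the GENCODE M21 transcripts (GRCm38) and are written 5′ to 3′ on the strand of the gene, with T for U. The first shows the start of mt-Rnr1, the small-subunit ribosomal RNA, which was the only member to rise past the test in EGR1OV. It lies on the plus strand at chrMT:70-189.

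mt-Rnr1 first bases: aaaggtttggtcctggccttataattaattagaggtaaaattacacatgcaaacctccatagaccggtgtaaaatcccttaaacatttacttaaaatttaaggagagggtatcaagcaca

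The proline transfer RNA mt-Tp, on the minus strand at chrMT:15356-15422, is printed whole because it was the one transfer RNA among the members. Its anticodon is in capitals.

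mt-Tp: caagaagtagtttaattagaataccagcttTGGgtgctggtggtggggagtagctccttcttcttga

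The messenger RNAs mt-Co3, mt-Nd4 and mt-Cytb end in a T left over after the last whole codon (capital below), and the stop codon is completed when the poly(A) tail is added. The ends lie on the plus strand at chrMT:9363-9390, chrMT:11517-11544 and chrMT:15261-15288.

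mt-Co3 end: tacgtctccatttattgatgaggatctT
mt-Nd4 end: ccaaaactaattacaggcctgacaataT
mt-Cytb end: gaagacaaaatactaaaattatatccaT

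Neighbouring genes also share bases. mt-Atp8 (plus strand, chrMT:7766-7969) overlaps mt-Atp6 by 43 bases, shown in capitals. mt-Nd4l overlaps mt-Nd4 by 7 bases, and mt-Nd5 overlaps mt-Nd6 by 14 bases on the opposite strand.

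mt-Atp8: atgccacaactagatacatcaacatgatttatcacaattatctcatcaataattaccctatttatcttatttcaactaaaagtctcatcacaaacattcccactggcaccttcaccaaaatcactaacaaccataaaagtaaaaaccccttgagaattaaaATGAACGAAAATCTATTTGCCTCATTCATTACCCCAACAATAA

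A block of nuclear copies lies on the minus strand of chromosome 1 (chr1:24611535-24616197, GRCm38) and holds 7 annotated copies, of mt-Co1, mt-Co2, mt-Atp6, mt-Co3, mt-Nd3, mt-Nd4l and mt-Nd4. Without gaps, the 681 bases of Gm28661 were identical to mt-Co2, the 678 of Gm10925 to mt-Atp6, the 783 of Gm28437 to mt-Co3, the 294 of Gm10222 to mt-Nd4l and the 876 of Gm28439 to mt-Nd4. Gm28438 differed from mt-Nd3 at 1 of 345 bases, T3C (mitochondrial base first, counted from 1 at the start of the gene). Gm29216 differed from the end of mt-Co1 at 6 of 492 bases. Measured between the aligned stretches, most of which end 1 to 3 bases before the end of the mitochondrial gene, neighbours were spaced equally on both chromosomes in 5 of 6 cases. The exception was the pair mt-Nd3 and mt-Nd4l, at 73 bases against 74 between their copies. The first 60 bases of mt-Nd3 (plus strand, chrMT:9459-9518) and of Gm28438 (minus strand, chr1:24613060-24613119) show the base that differs in capitals.

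mt-Nd3 first bases: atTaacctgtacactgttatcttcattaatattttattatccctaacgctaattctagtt
Gm28438 first bases: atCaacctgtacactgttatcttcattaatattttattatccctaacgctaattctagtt

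The whole of mt-Nd4l (plus strand, chrMT:9877-10173), a small subunit of complex I, shows how much of a gene such a copy can hold. Bases identical in Gm10222 are in capitals.

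mt-Nd4l: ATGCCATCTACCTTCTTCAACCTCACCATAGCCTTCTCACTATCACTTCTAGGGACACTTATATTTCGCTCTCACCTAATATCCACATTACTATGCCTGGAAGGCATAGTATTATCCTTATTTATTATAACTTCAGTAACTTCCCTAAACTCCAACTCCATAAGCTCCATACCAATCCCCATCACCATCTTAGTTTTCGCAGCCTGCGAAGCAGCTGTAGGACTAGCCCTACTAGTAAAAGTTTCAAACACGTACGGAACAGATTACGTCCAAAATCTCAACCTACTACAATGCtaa

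A read that lies wholly inside an identical stretch matches both chromosomes, and its origin cannot be told apart. How such reads were treated is not given in the sources used here. Of all 50-base words in each member, the share also found in a nuclear transcript was 98% in mt-Nd3, 98.8% in mt-Nd4l, 99.5% in mt-Atp6, 99.9% in mt-Co3 and 100% in mt-Co2. It was 62.2% in mt-Nd4, 51.1% in mt-Co1, 8.19% in mt-Nd2, 7.61% in mt-Nd5 and 1.04% in mt-Rnr2. The other 6 members (mt-Rnr1, mt-Nd1, mt-Atp8, mt-Nd6, mt-Cytb and mt-Tp) shared no such word. The 233 bases between the aligned stretches of mt-Co2 and mt-Atp6 hold most of mt-Atp8. The stretch between the copies of these neighbours is also 233 bases long, holds no annotated transcript, and its sequence was not analysed here.

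The listed levels in Sham fell into a high and a low set. mt-Co1, the catalytic subunit of cytochrome c oxidase (complex IV), was highest at 7157, 7070 and 7490 FPKM, and it ranked first or second among all genes in every library. mt-Cytb, the cytochrome b of complex III, followed at 2753, 2793 and 2890 FPKM. The complex I subunits came next, with means of 2002 ± 69.8 for mt-Nd1, 1604 ± 41.0 for mt-Nd5, 1426 ± 51.7 for mt-Nd2, 1055 ± 59.8 for mt-Nd4 and 696 ± 33.1 for mt-Nd6 (FPKM, SD, n = 3 each).

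The low set held the 5 members with over 90% of words shared, and mt-Atp8. Mean levels in Sham were 41.1 ± 1.83 FPKM for mt-Co2 and 23.3 ± 5.64 for mt-Co3, both complex IV subunits (SD, n = 3). They were 12.4 ± 1.78 for mt-Atp6 of the ATP synthase, 5.62 ± 1.05 for mt-Nd4l and 3.09 ± 0.506 for mt-Nd3 (SD, n = 3). mt-Atp8, the other ATP synthase subunit, had 1, 0 and 1 reads in the Sham libraries, 1, 0 and 2 after H/R and 0, 0 and 1 with the plasmid. All are under the floor of 3 reads per library (0.800 to 0.909 FPKM), so no difference in mt-Atp8 was detectable at these read counts and no fold is given. The order of the 13 messenger RNAs by mean was the same in all 3 groups. No neighbours in that order overlapped in Sham or H/R, and 2 of 12 neighbouring pairs overlapped in EGR1OV (mt-Nd5 with mt-Nd2, and mt-Nd4l with mt-Nd3).

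**Figure D1:**
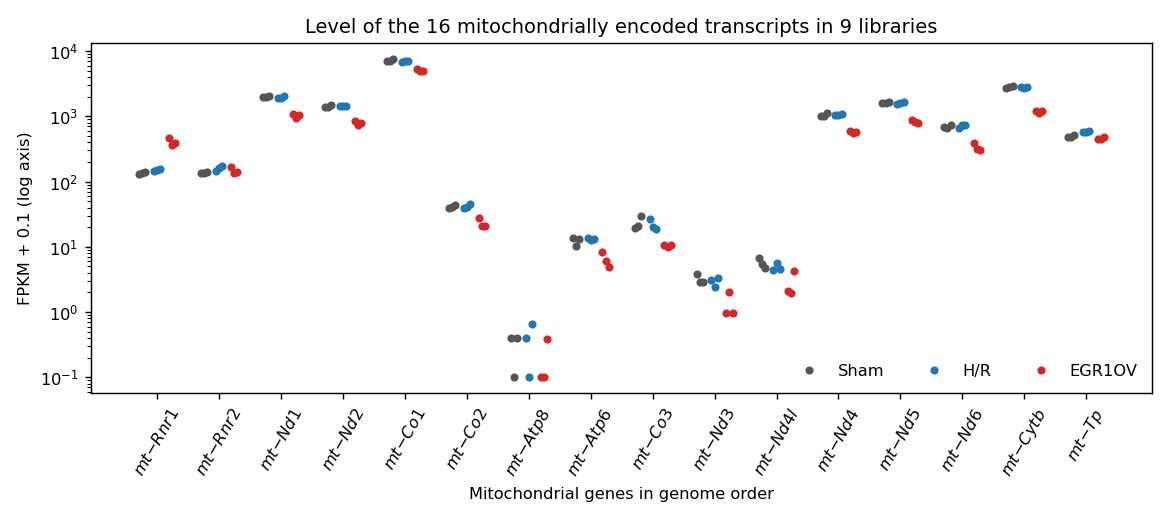
FPKM + 0.1 on a log axis for each of the 16 members in genome order, with a point for each library (Sham grey, H/R blue, EGR1OV red). The stretch from mt-Co2 to mt-Nd4l sits at 0 to 44.6 FPKM, EGR1OV points lie below the others for the messenger RNAs except mt-Atp8, and mt-Rnr1 is the member whose EGR1OV points lie above.

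**Figure D2:**
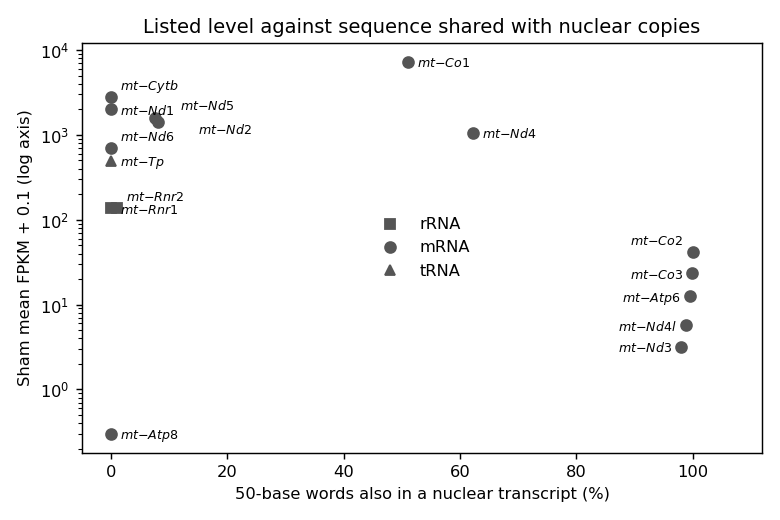
Sham mean FPKM + 0.1 (log axis) against the percent of 50-base words that a nuclear transcript also holds, a point for each member (circles messenger, squares ribosomal, triangle transfer RNA). The 5 members at 98% to 100% lie between 3.09 and 41.1 FPKM, and mt-Atp8 is low without a shared word.

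The comparison of EGR1OV with Sham addressed the response to the Egr1 plasmid. mt-Rnr1 rose and all 12 messenger RNAs that passed the filter fell, while mt-Rnr2, the large-subunit ribosomal RNA, and mt-Tp were not called. A member was called at a limma adjusted p under 0.05 and at least 1.3-fold, after a filter at a mean of 0.5 FPKM over the 9 libraries that 15 of the 16 members passed. Of these 15, 13 were called (1 higher, 12 lower), against a background of 16.4% of all 13985 genes tested (9.87% higher, 6.51% lower). The median log2 change, on the log2(FPKM + 1) scale used throughout, of the messenger RNAs was -0.90 (range -1.26 to -0.52), and that of all genes was 0.02. Because all values are relative to the library, fewer cells of a type and less RNA per cell cannot be told apart.

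mt-Rnr1 was at 132.8, 133.8 and 140.8 FPKM in Sham and at 458, 366 and 388 in EGR1OV. Every EGR1OV library lay above every Sham library, at 2.98 times the mean. The log2 change was +1.56 (SE 0.0711, limma adjusted p 1.51e-07). Its neighbour mt-Rnr2 was at 136.7, 136.1 and 141.8 FPKM in Sham and 167.6, 136.9 and 141.6 in EGR1OV, and the groups overlapped. Its log2 change was 0.10 (SE 0.0832, limma adjusted p 0.364).

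On the log2(FPKM + 1) scale mt-Cytb had the largest fall, from 2753, 2793 and 2890 FPKM in Sham to 1197, 1113 and 1206 in EGR1OV. Its log2 change was -1.26 (SE 0.0359, limma adjusted p 4.5e-09). The order depends on the scale, since mt-Nd3, which had 5, 11 and 5 reads in EGR1OV, was at -1.36 with a pseudocount of 0.1 FPKM and at -1.37 by limma voom on the recovered reads. After quantile normalization mt-Cytb was at -0.68, and mt-Co3 and mt-Nd6 were at -1.17 and -1.01. mt-Co1 had the smallest fall, from 7157, 7070 and 7490 FPKM to 5333, 4984 and 4869, with a log2 change of -0.52 (SE 0.0393, limma adjusted p 5.61e-06). That call was lost after quantile normalization (0.00, limma adjusted p 1), which sets values by rank. In both genes the groups did not overlap. Over all genes tested, non-overlap held for 31% in the higher and 24.6% in the lower direction.

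mt-Nd6, the messenger RNA of the minus strand and a complex I subunit, was at 695, 664 and 730 FPKM in Sham and 395, 311 and 308 in EGR1OV. All EGR1OV values lay below the Sham values, with a log2 change of -1.05 (SE 0.0895, limma adjusted p 1.24e-05). The other complex I subunits of the high set had EGR1OV means of 1033 ± 68.2 (mt-Nd1), 831 ± 47.0 (mt-Nd5), 785 ± 46.8 (mt-Nd2) and 579 ± 26.5 FPKM (mt-Nd4), SD, n = 3 each. These were 0.516 to 0.551 times the Sham means.

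The 5 members of the low set that were tested fell too. mt-Co3 was at 19.2, 21.1 and 29.8 FPKM in Sham and 10.6, 9.99 and 10.6 in EGR1OV, with a log2 change of -1.07 (SE 0.158, limma adjusted p 0.000467). mt-Nd4l was at 6.76, 5.41 and 4.69 FPKM in Sham and 2.03, 1.85 and 4.20 in EGR1OV, with a log2 change of -0.89 (SE 0.213, limma adjusted p 0.00775). These EGR1OV values rest on 10, 9 and 21 reads. The EGR1OV means of mt-Co2, mt-Atp6 and mt-Nd3 were 22.9 ± 4.08, 6.38 ± 1.78 and 1.22 ± 0.620 FPKM (SD, n = 3).

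Rows listed for the chromosome 1 copies moved in the same comparison. Reads inside stretches identical to a member cannot be told apart from those of the member. Of 8 copies tested, which include a chromosome 2 copy of mt-Co1, 5 were called lower and none higher, with a median log2 change of -0.97. Gm10925, the copy of mt-Atp6, went from 36.3 ± 2.84 to 15.4 ± 2.31 FPKM (SD, n = 3), a log2 change of -1.20 with a limma adjusted p of 1.48e-05. Gm28439, the copy of mt-Nd4, went from 12.6 ± 1.89 to 5.36 ± 1.62 FPKM (SD, n = 3). Gm29216, the copy of mt-Co1, was not called (log2 change -0.31, limma adjusted p 0.012). With the reads of each copy added to its member, 12 members were called in place of 13. The one lost was mt-Nd4l, at -0.77 with a limma adjusted p of 0.187. In H/R replicate 3, its copy Gm10222 stood at 30.7 FPKM against 3.12 to 7.01 in the other libraries.

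**Figure D3:**
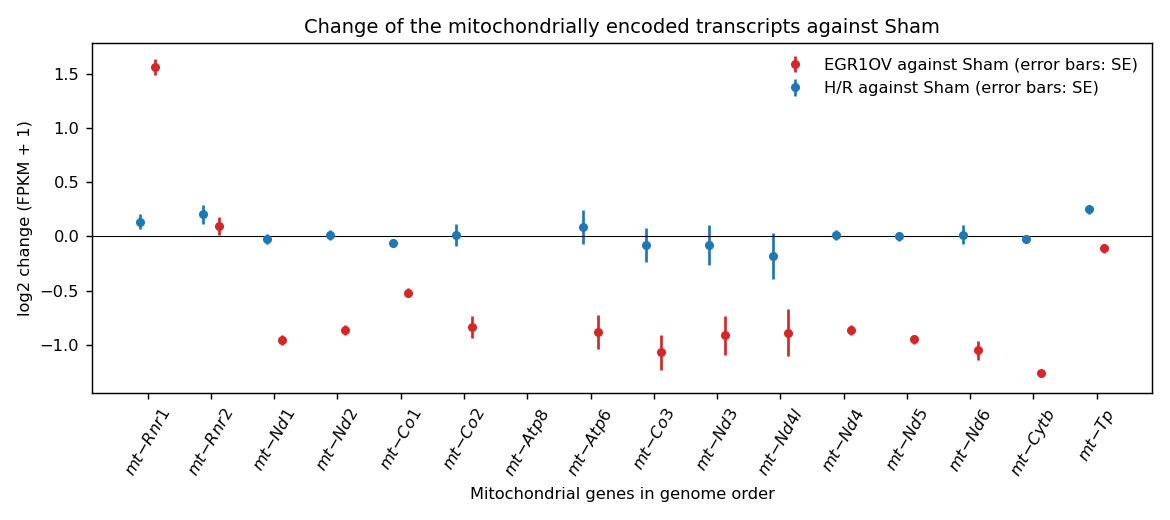
Log2 change on the log2(FPKM + 1) scale for the 15 members tested, in genome order, with SE bars (EGR1OV against Sham red, H/R against Sham blue; mt-Atp8 was not tested). In EGR1OV mt-Rnr1 is at +1.56 and the messenger RNAs lie between -1.26 and -0.52, and in H/R the messenger RNAs lie between -0.18 and 0.09.

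Summed by class, the messenger RNAs were at 16631, 16583 and 17543 FPKM in Sham and 10390, 9511 and 9631 in EGR1OV, 0.582 times the Sham mean. The ribosomal RNAs were at 269.6, 269.8 and 282.6 FPKM in Sham and 626, 503 and 530 in EGR1OV, 2.02 times the mean. Nearly all of that rise was mt-Rnr1 (means of 135.8 and 404 FPKM), since mt-Rnr2 had means of 138.2 and 148.7. Within a library, the ribosomal sum as a share of the messenger sum was 1.62%, 1.63% and 1.61% for Sham, 1.76%, 1.89% and 1.95% for H/R and 6.02%, 5.28% and 5.50% for EGR1OV. The ratio of mt-Rnr1 to mt-Rnr2 was 0.972, 0.983 and 0.993 in Sham and 2.73, 2.67 and 2.74 in EGR1OV. Neither ratio overlapped between Sham and EGR1OV. The members together took 1.41% ± 0.0696 of the recovered depth with the plasmid, against 2.30% ± 0.0720 for Sham and 2.25% ± 0.0335 for H/R (SD, n = 3).

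The fall did not preserve the proportions among messenger RNAs. mt-Co1 made up 42.8% ± 0.217 of the messenger sum in Sham and 51.4% ± 0.924 in EGR1OV (SD, n = 3), while mt-Cytb went from 16.6% to 11.9%. The ratio of mt-Cytb to mt-Co1 was 0.385, 0.395 and 0.386 in Sham and 0.225, 0.223 and 0.248 in EGR1OV. Of the 50-base words, 51.1% in mt-Co1 and none in mt-Cytb were shared with nuclear transcripts, and 5 messenger RNAs shared over 90%. The effect of such reads on these shares and this ratio was not tested. Among members on opposite strands, the ratio of mt-Nd6 to mt-Nd5 was 0.434 ± 0.0129 in Sham and 0.405 ± 0.0361 in EGR1OV (SD, n = 3), and the groups overlapped. The plus-strand messenger sum was 0.586 times Sham, and mt-Nd6 was 0.485 times Sham. Whether the counting used strand is not given, and without it reads of mt-Nd6 and mt-Tp cannot be told apart from transcripts of the opposite strand.

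**Figure D4:**
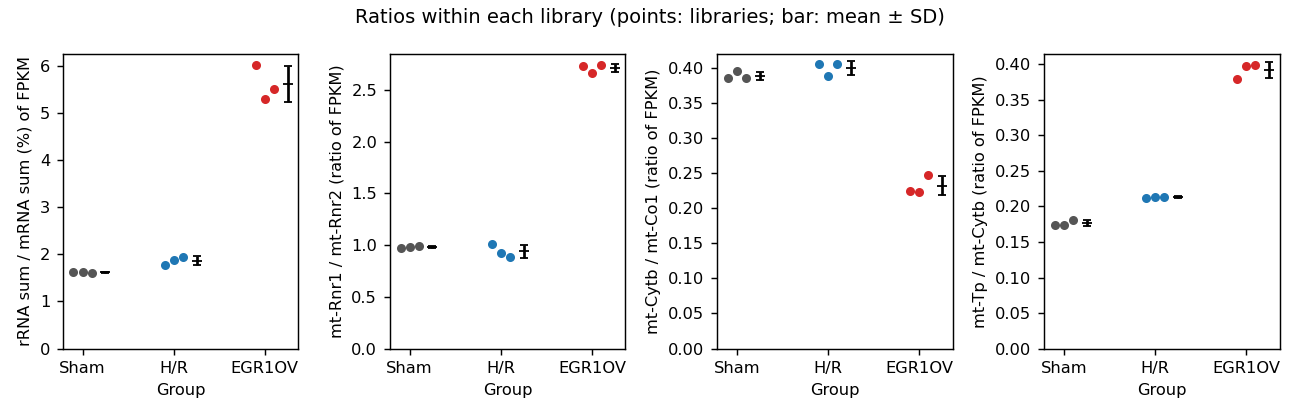
Ratios of FPKM within each library (points) with mean ± SD (bars, n = 3), by group: ribosomal to messenger sum in percent, mt-Rnr1 to mt-Rnr2, mt-Cytb to mt-Co1 and mt-Tp to mt-Cytb. In every panel the EGR1OV libraries lie apart from Sham and H/R, at 5.28% to 6.02%, 2.67 to 2.74, 0.223 to 0.248 and 0.380 to 0.399.

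By complex, the mitochondrially encoded sum in EGR1OV was 0.526 times Sham for complex I (7 genes), 0.417 for complex III (mt-Cytb alone) and 0.698 for complex IV, where mt-Co1 carries nearly all of the sum. For complex V, where mt-Atp6 carries it on 153, 123 and 148 reads in Sham and 94, 67 and 55 in EGR1OV, the value was 0.514. As a share of the messenger sum, complex V overlapped between Sham and EGR1OV. mt-Co2, mt-Co3 and mt-Atp6 belong to the low set, whose words are nearly all shared with nuclear copies apart from mt-Atp8. The effect of such reads on these sums was not tested. None of the 70 nuclear-encoded subunits of these complexes that were tested was called, although 47 had an unadjusted limma p under 0.05. Their median log2 change was -0.11 in complex I, -0.11 in complex III, -0.20 in complex IV and -0.18 in complex V, and the lowest was -0.36. Over all genes tested, 45.9% had a limma adjusted p under 0.05 when no fold threshold was set. Abundant nuclear messenger RNAs gave a further reference. Of 82 protein-coding nuclear genes at 300 FPKM or more in Sham, 4 were called higher and 26 lower, with a median log2 change of -0.26.

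**Figure D5:**
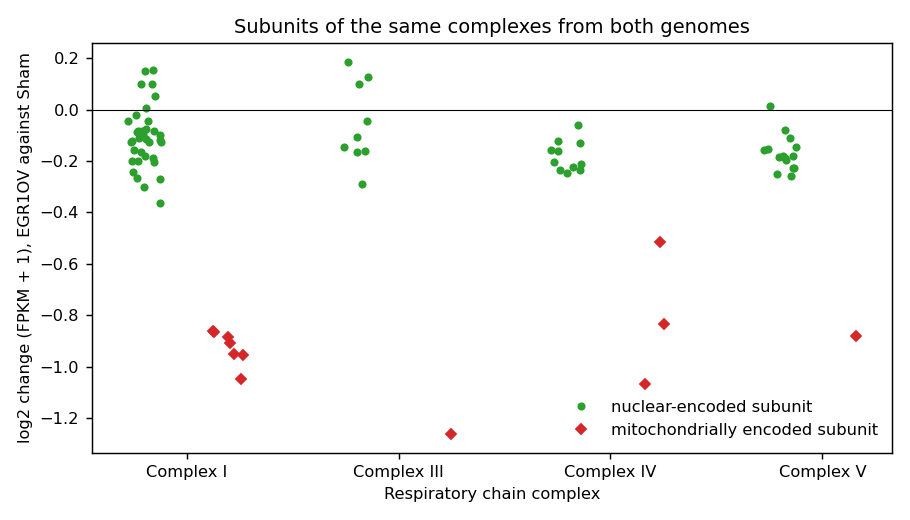
Log2 change in EGR1OV against Sham on the log2(FPKM + 1) scale for nuclear-encoded (green circles) and mitochondrially encoded (red diamonds) subunits of the same complex, a point for each gene. The nuclear-encoded subunits lie at -0.36 and above, and the mitochondrially encoded ones at -0.52 and below.

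Of the nuclear genes for mitochondrial transcription, RNA maturation and decay, 4 of 34 tested were called, 2 in each direction. Pnpt1, an exoribonuclease of the mitochondrion (polynucleotide phosphorylase), rose from 9.68 ± 0.276 to 29.9 ± 1.23 FPKM (SD, n = 3), with a limma adjusted p of 3.85e-09, and Top1mt, the mitochondrial topoisomerase, rose by 0.39 on the log2 scale (limma adjusted p 0.00199). Rexo2, an oligoribonuclease, had a log2 change of -0.57 (limma adjusted p 9.91e-07) and Tfb2m, a factor that starts mitochondrial transcription, one of -0.51 (limma adjusted p 0.000289). The mitochondrial RNA polymerase Polrmt (log2 difference 0.15) and the mitochondrial DNA packaging factor Tfam (0.20) were not called. None of 4 regulators of mitochondrial biogenesis tested was called by limma, and 3 had an unadjusted p under 0.05 (Pprc1 and Esrra higher, Gabpa lower). With no fold threshold, 45.9% of all genes tested had a limma adjusted p under 0.05.

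Several cell type markers also differed between EGR1OV and Sham. Of the 8 tubule markers tested (of 13 in the table), 4 were called lower and 1 higher in EGR1OV. The summed level, mostly Krt8 and Krt18, was 1808 to 1847 FPKM in Sham and 1132 to 1235 in EGR1OV. Pax8 (1.03 times Sham), Pax2 (1.31 times) and Cdh16 (0.807 times) were not called. Without overlap with Sham, Pax2 lay higher and Cdh16 lower in EGR1OV. Krt8 and Krt18, keratins of simple epithelia, were at 0.610 and 0.602 times Sham, the endocytic receptor Lrp2 at 0.340 and the water channel Aqp1 at 0.283, while the adhesion molecule Epcam was at 1.32 times Sham. Umod was at 0 in both groups, and Slc34a1 in EGR1OV. All 7 macrophage markers tested (of 8 listed) were called lower in EGR1OV, and their summed level was 139.7 to 143.9 FPKM in Sham and 22.1 to 26.5 in EGR1OV. None of the 8 was at 0 in all libraries of a group. The summed fibroblast and contractile markers, mostly Acta2, were at 2906 to 3020 FPKM in Sham and 1143 to 1212 in EGR1OV, with 1 of 4 tested called lower and 1 higher, and Lum was at 0 in Sham. Endothelial markers summed to 9.47 to 9.99 FPKM in Sham and 6.66 to 7.29 in EGR1OV (1 of 4 called lower, none at 0). Some markers were also called in H/R against Sham, at the 1.2-fold threshold of that comparison. Of those tested, 1 tubule marker (Epcam, 1.26 times Sham) and 2 fibroblast markers were called higher there. In the same comparison 2 macrophage markers were called lower, and no endothelial marker was called. The part of these cells and markers in the changes of the mitochondrial transcripts was not tested.

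The comparison of H/R with Sham addressed the response to hypoxia and reoxygenation, with the same Sham libraries as before. No member was called by limma at an adjusted p under 0.05 and at least 1.2-fold, where 4.25% of all genes tested were called, 1.6% higher and 2.65% lower. At an unadjusted p under 0.05 there were 2 members (mt-Tp and mt-Rnr2), and limma voom on the recovered reads also called 0. The median log2 change of the messenger RNAs was -0.01, that of all genes -0.03, and the messenger sum was 0.979 times Sham.

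mt-Tp had the largest difference, at 478, 486 and 524 FPKM in Sham and 586, 582 and 601 in H/R. All H/R values were higher, and the log2 change was 0.25 (SE 0.0413, limma adjusted p 0.00708), just short of 1.2-fold. mt-Tp was called, higher, after median-ratio scaling (0.29), quantile normalization (0.27) or rescaling to nuclear protein-coding genes (0.27), and without Sham replicate 3 (0.29). mt-Rnr2 was at 142.9, 162.8 and 173.1 FPKM in H/R, with a log2 change of 0.20 (SE 0.0832, limma adjusted p 0.15). mt-Rnr1 was at 144.5, 150.0 and 153.5 FPKM, with a log2 change of 0.14 (SE 0.0711, limma adjusted p 0.25). The H/R values of both ribosomal RNAs lay above the Sham values. Non-overlap held for 11.8% of all genes in that direction and for 21.8% in the other.

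The lowest H/R differences belonged to members with few reads. mt-Nd4l was at 4.37, 5.49 and 4.56 FPKM in H/R, with a log2 difference from Sham of -0.18 (SE 0.213, limma adjusted p 0.627). mt-Nd3 was at 3.02, 2.35 and 3.24 FPKM (log2 difference -0.08, SE 0.18, limma adjusted p 0.823). mt-Co3 was at 26.6, 20.3 and 18.9 FPKM (-0.08, SE 0.158, limma adjusted p 0.804). All 3 overlapped with Sham. mt-Nd6 was at 662, 725 and 726 FPKM, with a log2 difference of 0.02 (SE 0.0895, limma adjusted p 0.933). Of the 12 messenger RNAs tested, only mt-Co1 did not overlap with Sham, at 6830, 7028 and 6949 FPKM in H/R (0.958 times Sham, limma adjusted p 0.349).

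Of the nuclear-encoded subunits, 2 of 70 were called after H/R, both lower. Ndufb10 of complex I had a log2 change of -0.28 (limma adjusted p 0.0032), and Atp5g1 of complex V one of -0.34 (limma adjusted p 0.00702). Of the 70, 44 had an unadjusted limma p under 0.05. The median log2 change after H/R was -0.142 in complex I, -0.15 in complex III, -0.118 in complex IV and -0.125 in complex V. A small fall of these subunits was thus not particular to EGR1OV. None of 34 genes for mitochondrial gene expression was called by limma, and 4 had an unadjusted p under 0.05.

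EGR1OV was also compared directly with H/R, which shares its EGR1OV libraries with the first comparison. Again 13 of 15 members were called (1 higher, 12 lower), against a background of 18.9% (11.9% higher, 6.94% lower). Non-overlap of the groups held for 36.6% of all genes in the higher and 22% in the lower direction, and for 1 and 13 of the 15 members. mt-Rnr1 was 2.71 times as high as in H/R (log2 change 1.42, SE 0.0711, limma adjusted p 2.77e-07), and mt-Rnr2 differed by -0.10 (SE 0.0832, limma adjusted p 0.34). On the log2(FPKM + 1) scale the largest falls were those of mt-Cytb (-1.24, SE 0.0359, limma adjusted p 5e-09), mt-Nd6 (-1.07, SE 0.0895, limma adjusted p 1.01e-05) and mt-Co3 (-0.99, SE 0.158, limma adjusted p 0.000645). mt-Nd4l was at -0.70 (SE 0.213, limma adjusted p 0.0211), a call that was lost without H/R replicate 2 (limma adjusted p 0.07), EGR1OV replicate 1 (0.0742) or EGR1OV replicate 2 (0.0765). It was also lost with no filter on low values (0.0593), with the Gm23935 covariate (log2 change -0.52, limma adjusted p 0.122) and with the reads of its copy added (0.074).

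mt-Tp was at 454.8, 442.0 and 481.6 FPKM in EGR1OV, all below the H/R values and overlapping with Sham. Its log2 change was -0.36 against H/R (SE 0.0413, limma adjusted p 8.22e-05), short of the 1.3-fold threshold, and -0.11 against Sham (SE 0.0413, limma adjusted p 0.0552). Without EGR1OV replicate 3 the value against H/R was -0.39, past the threshold. For the ratio of mt-Tp to mt-Cytb, the means were 0.392 ± 0.0107 with the plasmid, 0.213 ± 0.00137 after H/R and 0.176 ± 0.00418 for Sham (SD, n = 3), and no groups overlapped.

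In the direct comparison 1 of the 70 nuclear-encoded subunits was called, Ndufs7 of complex I, higher in EGR1OV (log2 change 0.39, limma adjusted p 0.000638). Among the genes for mitochondrial gene expression 3 of 34 were called, with Pnpt1 (1.44) and Top1mt (0.63) higher and Tfb2m (-0.48) lower. For every single member whose groups did not overlap, the exact two-sided permutation p was 0.1, the smallest that 3 against 3 libraries allow.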

How the data were processed

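FPKM values (fragments scaled to exon length and library total) were deposited by the authors as 1 table, with each library in its own column. The submitters' processing notes name Bowtie2 2.2.3, HISAT2 2.1.0, TopHat2 and build mm9, with no role or order. Gene positions in the table were nevertheless equal to GENCODE M21 (GRCm38) for all 16 members and for 94.6% of rows, and coordinates are given on that build. The counter, the use of strand, the treatment of reads with several matches and any selection of poly(A) RNA or removal of ribosomal RNA are not given in the sources used here. Each affects ribosomal RNAs, opposite strands or genes with nuclear copies.

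Reads were recovered from the FPKM steps and GENCODE exon lengths. Of the values that came to 1 read or more, up to the upper limit used for this check, 94.0% were whole within 0.02. Floors are 3 reads and cover counting error only. The test was limma 3.58.1 in R 4.3.3 (lmFit, then eBayes with a trend) on log2(FPKM + 1), a scale that understates changes of low genes. All 9 libraries entered the fit, p-values are two-sided, and Benjamini-Hochberg adjustment covered the 13985 genes whose mean reached 0.5 FPKM. Fold thresholds against Sham follow the study, and the direct comparison took that of EGR1OV against Sham. On simulated libraries of 13967 genes for EGR1OV against Sham, 33 of 40 genes at 0.5-fold, 36 of 57 at 0.667-fold, 39 of 54 at 1.5-fold and 43 of 49 at 2-fold were recovered, and 6 unchanged genes were called. The simulation gave every gene the same replicate spread beyond sampling. That spread was below the EGR1OV spread of mt-Rnr1, mt-Rnr2 and every messenger RNA of the high set, so recovery at such a spread was not measured. All 9 replicate pairs differed by more than sampling noise, and none was merged.

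Members and gene lists were chosen with earlier results of these data known, so lists have counts and medians and no test. All messenger and ribosomal members are named. Full statistics are given for the 3 largest rises and falls of each comparison, for mt-Rnr1, mt-Rnr2, mt-Nd6, mt-Atp8, mt-Nd4l and mt-Tp, and for up to 3 called genes a list. mt-Co1, Top1mt, Polrmt, Tfam, single nuclear copies and cell type markers are given beside these, chosen after their values were seen. Shared words were taken from the transcript strand of each member and looked for in nuclear transcripts and their reverse complements. Python 3.11.15 with numpy 2.4.6, pandas 2.3.3 and matplotlib 3.10.9 was used for tables and figures.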

Additional observations from a re-analysis of the deposited data

How the results depend on the processing

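The count of called members for EGR1OV against Sham was 11 to 13, and for EGR1OV against H/R 11 to 14, under other pseudocounts, filters, scalings and limma settings, under limma voom on recovered reads, and without each library. At 2-fold the counts were 4 and 3. For H/R against Sham the count was 1 in place of 0 (mt-Tp) after median-ratio scaling, quantile normalization or rescaling to nuclear protein-coding genes, and with no fold threshold. Without single libraries the counts ran from 13 to 13, from 0 to 1 and from 12 to 14. In the direct comparison, quantile normalization gave mt-Co1 a value of 0.39 (limma adjusted p 0.509) in place of a fall. mt-Co1 ranks first or second in every library, and this normalization sets values by rank. Small H/R differences changed sign when a library was left out. mt-Co3 ran from -0.217 (without H/R replicate 1) to 0.105 (without Sham replicate 3), mt-Nd3 from -0.149 (without H/R replicate 3) to 0.022 (without H/R replicate 2) and mt-Nd6 from -0.018 (without Sham replicate 2) to 0.060 (without H/R replicate 1). mt-Nd4l was at 0.28 in H/R (limma adjusted p 0.73) with the reads of its copy added, where H/R replicate 3 of Gm10222 is high. The Gm23935 covariate and the addition of copy reads were chosen after the data were seen. Replicate numbers did not pair the libraries (correlations of deviations -0.02 to 0.06 for same-numbered libraries), and with the replicate number as a block the counts were 13, 0 and 13. mt-Atp8 had 0 to 2 reads per library, and mt-Nd3 and mt-Nd4l had 5 to 33. Why these rows held so few reads was not tested.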
